A study of Sus scrofa with 8 samples.

Results

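The genes described here encode the proteins of the mitochondrial ribosome, chosen as every row of the deposited table whose gene name starts with MRPL or MRPS followed by a number. There were 77 such genes of 31014 in the table, 48 with an MRPL name (large subunit) and 29 with an MRPS name (small subunit). The row named MRPS12 is labelled as a long non-coding RNA in that table and was kept by its name. Heart tissue of wild-type miniature pigs was profiled by RNA sequencing in 3 samples given vehicle and 5 given doxorubicin, an anthracycline used against cancer that is known to harm the heart. All 8 samples share the wild-type genotype, while no dose, schedule, age or sex is stated in the sources at hand. Whether each sample is its own animal is not stated either, so p-values reflect only how much these samples varied, which may be technical.

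Mitochondria carry their own ribosome, which translates only the few respiratory chain subunits encoded in mitochondrial DNA. Its RNA comes from that DNA, whereas all of its proteins are encoded in the nucleus, made in the cytosol and imported. Many of its proteins descend from bacterial ribosomal proteins and the others were added in the mitochondrial lineage. Heart muscle depends on oxidative metabolism, and inherited defects of several of these proteins, MRPL3, MRPL44 and MRPS22 among them, are known to cause cardiomyopathy.

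Library totals ran from 16105242 to 18267178 counts. The library least like its group was doxorubicin 5, whose log2 levels correlated at 0.912 on average with those of its group, where the other 4 had 0.941 to 0.956. Calls are at adjusted p under 0.05 in the fit described below, which 11.3% of all tested genes passed as lower and 13.6% as higher. Of 11 tested cardiomyocyte markers 0 were higher and 2 lower (18.2%). Their summed level was 70198 to 77882 CPM (counts scaled to a common library size) in vehicle and 41939 to 72606 after doxorubicin. The 10 fibroblast and matrix markers had 5 higher and 1 lower, with a summed level of 1486 to 1799 CPM in vehicle and 2852 to 44142 after doxorubicin, the highest in doxorubicin 5. All 9 macrophage markers had positive fold changes (5 called), at 144 to 195 CPM against 244 to 747. Of 7 tested lymphocyte markers 5 were higher and 0 lower (19.1 to 29.8 against 37.2 to 63.1 CPM). The 5 include CD3D, at 0.286, 0.555 and 0.569 CPM in vehicle, which entered the test only through its doxorubicin libraries. Of 8 smooth muscle and pericyte markers 3 were higher and 1 lower (567 to 1230 against 693 to 4447 CPM). Of 4 tested adipocyte markers 0 were higher and 2 lower (275 to 430 against 42.7 to 157 CPM). The 2 include ADIPOQ, at 0 to 0.218 CPM after doxorubicin, which entered the test only through its vehicle libraries. Endothelial markers had 0 of 8 higher and 1 lower (1233 to 1608 against 522 to 1540 CPM). Of 6 nerve and Schwann markers 1 was higher and 0 lower, and the 2 tested erythrocyte markers did not pass. None of the markers of these cell types in the table was at 0 in all libraries, and LEP, of adipocytes, was at 0 in vehicle. Their part in the results below was not tested, and in bulk tissue fewer cells of a type and less RNA per cell cannot be told apart.

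After doxorubicin more genes of the mitochondrial ribosome passed as lower than as higher, and most did not pass. Of 75 members with enough reads to test, 22 fell, 3 rose and 50 did not pass (edgeR quasi-likelihood test, Benjamini-Hochberg adjusted p under 0.05 over 14938 genes). Among all tested genes 11.3% passed as lower and 13.6% as higher, while 29.3% of the members were lower. In either direction 24.9% of all tested genes and 33.3% of the members passed. The median log2 fold change of the 75 was −0.40, beside 0.02 for all tested genes, and 54 of the 75 values were negative. The members that fell included MRPL1, MRPL42, MRPL47, MRPS22 and MRPS18C, each near or past a 2-fold change, and those that rose were MRPL57, MRPL12 and MRPS7. MRPS7 had few reads and entered the test only because it was higher after doxorubicin. Among the 74 members with a mean of 10 CPM or more, which leaves it out, 22 fell and 2 rose. In 31 members every doxorubicin library lay below every vehicle library, 41.3% of those tested against 17.8% of all tested genes. The reverse held for 3 members (MRPL57, MRPS21 and MRPS7), where 17.1% of all tested genes did so.

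These counts depend on the scaling of the libraries. As a share of all counts, the 77 genes took 0.286%, 0.361% and 0.325% in vehicle 1 to 3, and 0.334%, 0.326%, 0.263%, 0.348% and 0.352% in doxorubicin 1 to 5, and the groups overlapped. Genes of mitochondrial DNA took 23.6% to 27.5% of counts in vehicle and 8.70% to 16.6% after doxorubicin. The TMM factors, which correct for such shifts in composition, were 0.839 to 0.874 in vehicle and 1.05 to 1.18 after doxorubicin. With library size only, the median of all tested genes moved by over 0.1, to 0.38, and that of the members was −0.04. There 5 members passed as lower and 10 as higher, while 3.34% of all tested genes passed as lower and 27.4% as higher. The distance of the members' median from that of all genes was −0.42 under both scalings. The calls also leaned on each vehicle library, with 6 lower and 0 higher without vehicle 1, 9 and 3 without vehicle 2, and 4 and 0 without vehicle 3. Calls over all tested genes dropped as well. Without vehicle 1, 2 and 3, 2.0%, 5.6% and 2.4% of them were lower and 2.2%, 7.1% and 2.2% higher.

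**Figure D1:**
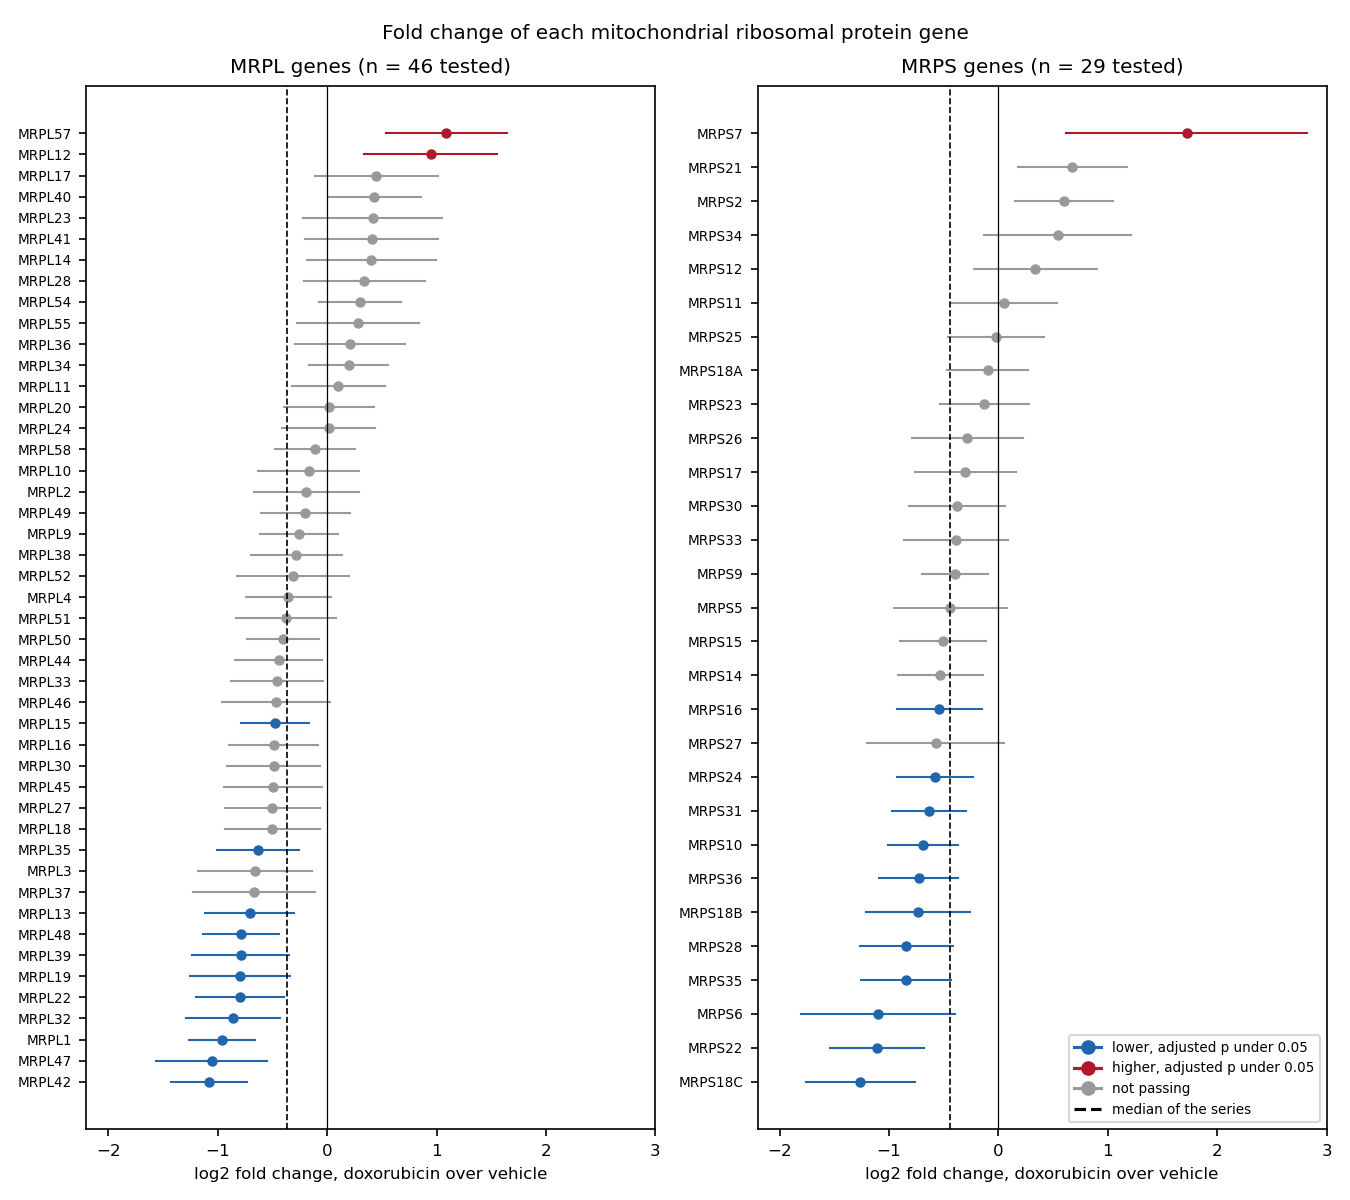
Log2 fold change (x axis) of each tested MRPL (left) and MRPS (right) gene, doxorubicin over vehicle, with 95% intervals from the edgeR fit; blue genes passed as lower, red as higher and grey did not pass, and dashed lines mark the median of each series (−0.37 and −0.44). Most points lie left of 0, and the genes that rose are MRPL57 and MRPL12 on the left and MRPS7 on the right.

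Among the large subunit genes the smallest p belonged to MRPL1, whose bacterial relative forms the mobile stalk beside which spent transfer RNA leaves (chromosome 8, 73305444 to 73423524, Sscrofa11.1). It was read at 68.7, 69.3 and 64.1 CPM in vehicle 1 to 3 and at 38.6, 32.8, 30.6, 39.1 and 32.2 CPM in doxorubicin 1 to 5. All doxorubicin values were low and the groups stood far apart. The log2 fold change was −0.96 (SE 0.14, adjusted p = 0.00525).

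MRPL42, a protein of the large subunit with no bacterial counterpart (chromosome 5, 89631613 to 89661775), was at 46.5, 49.3 and 54.0 CPM in vehicle and at 26.7, 25.3, 17.8, 24.6 and 23.95 CPM after doxorubicin. Doxorubicin 3 was the lowest and no values overlapped. The log2 fold change was −1.08 (SE 0.16, adjusted p = 0.00546). MRPL47, at the mouth of the tunnel through which new proteins leave (chromosome 13, 117626846 to 117656388), was at 36.9, 46.2 and 43.2 CPM against 20.4, 22.9, 11.8, 26.1 and 19.95 CPM. Doxorubicin 3 was again the lowest, and vehicle 1 the lowest of its group. Its log2 fold change was −1.06 (SE 0.23, adjusted p = 0.0132). MRPL48, in the central protuberance that faces the small subunit (chromosome 9, 8221641 to 8267251), was at 37.7, 43.1 and 45.2 CPM against 24.3, 21.4, 20.3, 27.0 and 28.6 CPM. Here doxorubicin 5 was the highest of its group and still below vehicle 1. Its log2 fold change was −0.79 (SE 0.16, adjusted p = 0.0106).

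In the small subunit the lowest fold change was that of MRPS18C, a relative of a bacterial protein of the platform (chromosome 8, 135019702 to 135026719). It was at 21.0, 21.8 and 25.95 CPM in vehicle and at 13.9, 9.45, 7.005, 7.78 and 9.75 CPM after doxorubicin. Doxorubicin 1 was the highest of its group and below all vehicle values. The log2 fold change was −1.26 (SE 0.22, adjusted p = 0.00807). MRPS22, a small subunit protein without a bacterial counterpart (chromosome 13, 80006656 to 80232107), was at 72.0, 67.1 and 70.0 CPM against 35.8, 32.4, 24.2, 43.0 and 25.9 CPM. The vehicle values lay close together, while the doxorubicin values were spread, with doxorubicin 3 and 5 the lowest. Its log2 fold change was −1.11 (SE 0.19, adjusted p = 0.00789).

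MRPS10, in the head of the small subunit (chromosome 7, 37318344 to 37329246), was at 85.6, 90.2 and 80.3 CPM in vehicle and at 51.7, 54.1, 43.4, 54.7 and 61.4 CPM after doxorubicin. The groups did not overlap, and doxorubicin 3 was the lowest. The log2 fold change was −0.69 (SE 0.14, adjusted p = 0.0121). MRPS35, another protein added in mitochondria (chromosome 5, 45973698 to 46023003), was at 33.01, 38.8 and 38.3 CPM against 24.01, 16.8, 15.3, 22.3 and 23.9 CPM. Doxorubicin 2 and 3 were the lowest here. Its log2 fold change was −0.84 (SE 0.18, adjusted p = 0.0137). MRPL1, MRPL42, MRPS22 and MRPS18C passed whichever library was left out and also with library size only. MRPL48, MRPS10, MRPL47 and MRPS35 did not pass without vehicle 3 (adjusted p = 0.0589, 0.0532, 0.0609 and 0.0639), nor did MRPS10, MRPL47 and MRPS35 without vehicle 1 (0.0563, 0.0509 and 0.0513). MRPL48, MRPS10 and MRPS35 did not pass with library size only either (0.0539, 0.0901 and 0.0548).

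**Figure D2:**
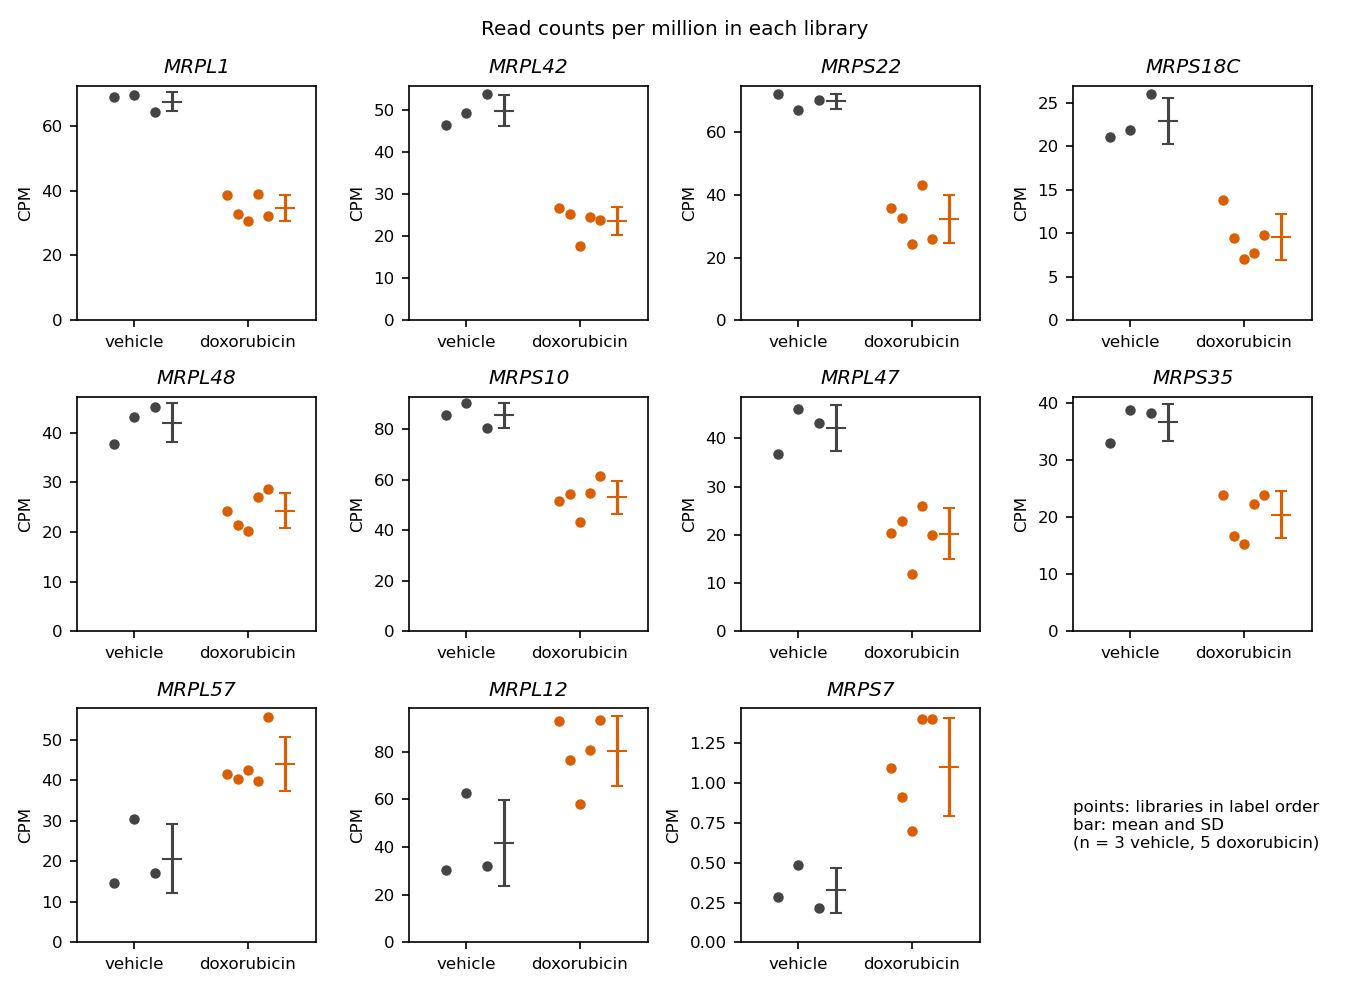
CPM (y axis, from 0) in each library for the 8 lower genes with the smallest p and the 3 higher genes; points are libraries in label order, and bars give the mean and SD (n = 3 vehicle, n = 5 doxorubicin). The 8 lower genes separate the groups, whereas MRPL12 has vehicle 2 at 62.6 CPM, above doxorubicin 3 at 57.9 CPM.

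Another 14 members fell, with log2 fold changes from −0.47 to −1.10. In the large subunit they were MRPL32 (−0.86), MRPL22 (−0.80), MRPL19 (−0.80), MRPL39 (−0.79), MRPL13 (−0.71), MRPL35 (−0.63) and MRPL15 (−0.47). With an MRPS name they were MRPS6 (−1.10), MRPS28 (−0.84), MRPS18B (−0.74), MRPS36 (−0.73), MRPS31 (−0.63), MRPS24 (−0.58) and MRPS16 (−0.54). In each of these 14, as in the 8 above, no doxorubicin library reached the lowest vehicle library. MRPL13 and MRPL35 had very even vehicle values (39.3 ± 0.121 and 45.8 ± 0.413 CPM, SD, n = 3) and more variable ones after doxorubicin (24.1 ± 5.30 and 29.6 ± 5.41 CPM, SD, n = 5). MRPS6, the most abundant member in vehicle by CPM, was at 136, 163 and 159 CPM in vehicle and at 98.4, 70.7, 33.6, 100.3 and 53.1 CPM after doxorubicin, with doxorubicin 3 the lowest. Its locus shares 50.4% of its width with SLC5A3 on the same strand, so reads may have been split between them. MRPS36 carries a ribosomal name but is now known as a subunit of the oxoglutarate dehydrogenase complex of the TCA cycle, and was at 121, 141 and 114 CPM against 85.9, 71.5, 59.1, 84.2 and 76.9 CPM. Every 1 of these 14 lost its call without at least 1 library. Over all 22 lower members, 16 were lost without vehicle 1, 13 without vehicle 2, 18 without vehicle 3 and 5 without doxorubicin 2, with adjusted p up to 0.134 (MRPS16 without vehicle 2), and 17 did not pass with library size only.

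Against this direction 3 members rose. MRPL57, a small protein of the large subunit encoded by a locus under 1 kb wide (chromosome 11, 1320846 to 1321829), was at 14.6, 30.4 and 17.1 CPM in vehicle and at 41.5, 40.4, 42.5, 39.9 and 55.7 CPM after doxorubicin. Vehicle 2 stood above the other vehicle libraries, and all doxorubicin libraries lay above it. The log2 fold change was 1.09 (SE 0.25, adjusted p = 0.0158). MRPL12, which forms the stalk that recruits translation factors and is also known to bind the mitochondrial RNA polymerase (chromosome 12, 1200458 to 1203817), was at 30.2, 62.6 and 32.1 CPM against 92.8, 76.6, 57.9, 80.7 and 93.3 CPM. Vehicle 2 again stood high, here above doxorubicin 3. Its log2 fold change was 0.95 (SE 0.27, adjusted p = 0.0329). Neither passed without vehicle 1 (0.0721 for MRPL57 and 0.139 for MRPL12) or without vehicle 3 (0.0790 and 0.137), and MRPL12 also failed without doxorubicin 2 (0.0558). With library size only both rose, by 1.45 and 1.30 on the log2 scale.

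MRPS7, of the head of the small subunit (chromosome 12, 6052109 to 6055669), was hardly read at all, with 4, 7 and 3 reads in vehicle and 20, 18, 15, 27 and 28 after doxorubicin. The groups did not overlap, and the fitted log2 difference was 1.72 (SE 0.49, adjusted p = 0.0329). It passed the filter on low counts only through the doxorubicin libraries, so it enters the test because it was higher there. It lost its call without vehicle 1 (0.122), vehicle 2 (0.0515), vehicle 3 (0.129), doxorubicin 2 (0.0507) or doxorubicin 4 (0.0560), and with no filter (0.0681) or with the replicate number as a block (0.113). MRPL43 and MRPL53 had 0 reads in all 8 libraries, which allows up to 3 reads in each by counting error alone. The loci of MRPS7 and MRPL43 lie wholly within the span of other genes (100%), and 99.9% of that of MRPL53 does. No other member exceeded 90.6% (MRPL17, read at 43.7 CPM on average). What part this overlap had in the low counts was not tested. In all, 25 members overlap another gene, 22 of them one on the opposite strand, and whether counting used the strand is not stated in the sources at hand. Called members with such an overlap were MRPL1, MRPS22, MRPS18C, MRPL47, MRPL22, MRPL57, MRPL19, MRPS7, MRPS6 and MRPS18B.

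Among the 50 members that did not pass, log2 fold changes ran from −0.67 to 0.67, and 32 were negative. The largest upward values there were, among MRPS genes, MRPS21 (0.67, SE 0.22, adjusted p = 0.0517) and MRPS2 (0.60, SE 0.20, adjusted p = 0.0519), and, among MRPL genes, MRPL17 (0.45, SE 0.25, adjusted p = 0.208). MRPS21 was at 14.5, 18.03 and 10.7 CPM in vehicle and at 27.6, 23.8, 18.3, 18.6 and 27.0 CPM after doxorubicin, so the groups did not overlap. The 95% intervals of the 50 together spanned −1.23 to 1.21, so the data did not bound all of them to under 2-fold. Per kilobase of the deposited gene length, the highest vehicle levels were those of MRPL33 (131 CPM per kb), MRPL51 (103 CPM per kb) and MRPL37 (87.3 CPM per kb) in the large subunit. MRPS18B (122 CPM per kb), MRPS6 (101 CPM per kb) and MRPS36 (91.5 CPM per kb) led the MRPS names. The MRPL leaders did not pass the test and the MRPS leaders fell.

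Position in the ribosome was compared next, without a test and in groups of few genes, beside 11.3% lower and 13.6% higher among all tested genes. In the stalk of the large subunit MRPL12 rose, while its neighbours MRPL10, which holds MRPL12, and MRPL11 at the stalk base did not pass. MRPL10 was at 25.3, 35.0 and 25.6 CPM in vehicle and at 26.7, 25.5, 17.2, 31.4 and 26.7 CPM after doxorubicin, and MRPL11 was at 30.4 ± 7.46 and 32.7 ± 4.77 CPM (SD, n = 3 and n = 5). The 95% intervals of their log2 fold changes were −0.63 to 0.29 and −0.32 to 0.53. Of 9 tested genes at the tunnel exit 3 (33.3%) fell (MRPL47, MRPL22 and MRPL39) and 0 rose, at a median of −0.44. The 6 that did not pass were MRPS30 (−0.38), MRPL44 (−0.44), MRPL45 (−0.50), MRPL24 (0.02), MRPL23 (0.42) and MRPL17 (0.45). Of 8 in the central protuberance 1 (12.5%, close to all tested genes) fell (MRPL48), at a median of −0.39. The other 7 were MRPL18 (−0.50), MRPL27 (−0.50), MRPL46 (−0.47), MRPL52 (−0.31), MRPL38 (−0.28), MRPL58 (−0.11) and MRPL40 (0.43). On the decoding side of the small subunit MRPS5 (−0.44), MRPS9 (−0.40), MRPS11 (0.05) and MRPS12 (0.34) did not pass. The MRPS12 row is labelled as a long non-coding RNA in the deposited table. MRPS7 is left out of the count because it entered the test only through its high group.

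The 3 relatives of a single bacterial protein, MRPS18A, MRPS18B and MRPS18C, had separate values. The log2 fold change of MRPS18C was −1.26 and that of MRPS18B −0.74 (SE 0.21, adjusted p = 0.0343). MRPS18A, which despite its name sits in the large subunit, had −0.10 (SE 0.17, 95% interval −0.47 to 0.27, adjusted p = 0.693). Its libraries lay at 32.4, 44.9 and 39.7 CPM in vehicle and at 36.7, 34.6, 29.8, 38.2 and 43.3 CPM after doxorubicin, with full overlap. The difference between the 3 genes was not tested. Ancestry did not separate the calls by much, and this was not tested. Of 47 members with a bacterial homologue 15 (31.9%) fell and 2 rose, at a median of −0.44. Of 28 without one 7 (25%) fell and 1 rose, at a median of −0.38. Among all tested genes 11.3% were lower and 13.6% higher. The 2 include MRPS7, which entered the test only through its high group, and the 7 include MRPS36, now known as a subunit of another complex.

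The large and small subunit series were then set side by side. Of 46 tested MRPL genes 11 fell, 2 rose and 33 did not pass, with a median log2 fold change of −0.37. Of 29 MRPS genes 11 fell, 1 rose (MRPS7, which entered the test only through its high group) and 17 did not pass, with a median of −0.44. The lower share was thus 23.9% for MRPL and 37.9% for MRPS, beside 11.3% of all tested genes. The gap between both medians was −0.07. With MRPS18A and MRPS30 placed in the large subunit, where the proteins sit, and MRPS36 left out, 11 of 48 large and 10 of 26 small subunit genes fell, with medians of −0.37 and −0.47. Without doxorubicin 5 the lower calls were 17 MRPL and 13 MRPS, and without doxorubicin 2 they were 10 and 7. In those fits 15.4% and 7.29% of all tested genes were lower. The MRPL and MRPS calls were 4 and 2 without vehicle 1, 4 and 5 without vehicle 2, and 2 and 2 without vehicle 3. There 2.0%, 5.6% and 2.4% of all tested genes were lower.

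By library, the median log2 CPM of the MRPL genes relative to the vehicle mean was −0.24, 0.22 and −0.01 in vehicle 1 to 3 and −0.20, −0.21, −0.67, −0.16 and −0.25 in doxorubicin 1 to 5. For the MRPS genes it was −0.15, 0.16 and 0.01 in vehicle and −0.39, −0.39, −0.86, −0.27 and −0.38 after doxorubicin. The MRPL median of vehicle 1 thus lay within the doxorubicin range, whereas all doxorubicin MRPS medians lay below all vehicle ones. These library medians were computed for TMM-scaled values only. The median log2 fold change of the MRPS genes was −0.43 with RLE factors. With library size only it was −0.09, with 3 higher and 2 lower calls, beside 27.4% and 3.34% of all tested genes. Doxorubicin 3 was the lowest library for both series. Without it 20 members fell and 3 rose, at a median of −0.34.

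Summed over the tested genes, the MRPL level was 1959, 2664 and 2208 CPM in vehicle and 2011, 1912, 1436, 2016 and 2110 CPM after doxorubicin, and the groups overlapped. The MRPS sum was 1374, 1637 and 1509 CPM in vehicle and 1172, 1094, 800, 1233 and 1086 CPM after doxorubicin, with no overlap. That separation depends on the scaling, and without the TMM factors the MRPS sums of the groups overlap. The ratio of the MRPL to the MRPS sum, which the scaling does not alter, was 1.51 ± 0.107 in vehicle and 1.77 ± 0.114 after doxorubicin (SD, n = 3 and n = 5). Vehicle 2 (1.63) came close to doxorubicin 4 (1.64). Without MRPS6, the largest MRPS term in vehicle, the ratio of vehicle 2 (1.81) exceeded that of doxorubicin 4 (1.78), and by structure it did so as well (1.914 and 1.905). The separation of the ratio thus did not hold in either case.

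**Figure D3:**
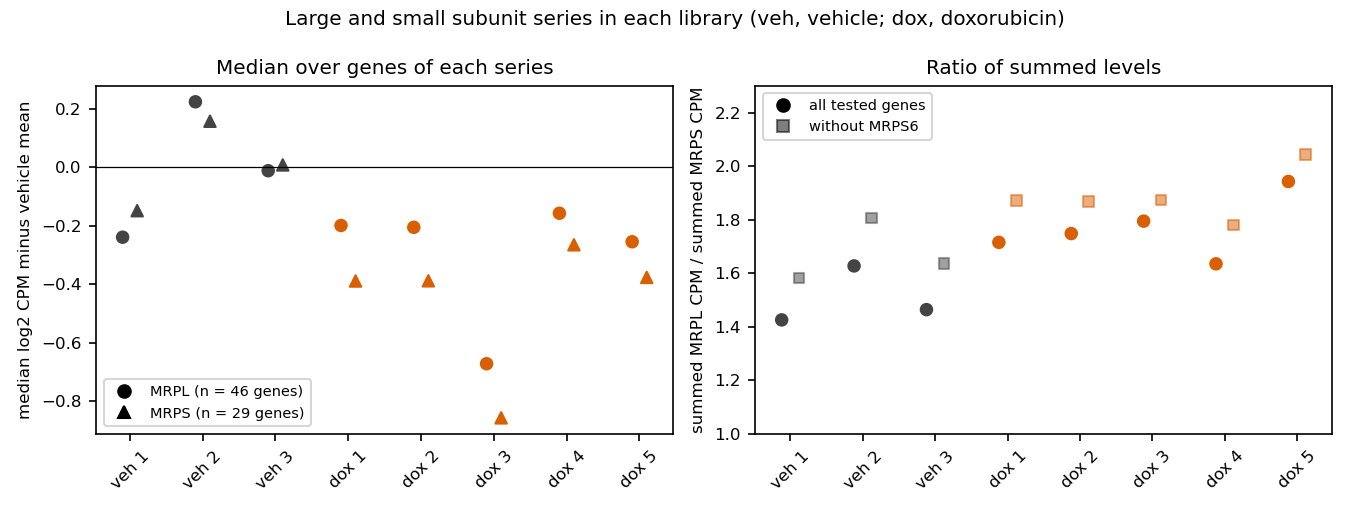
Left, median over MRPL (circles) and MRPS (triangles) genes of log2 CPM minus the vehicle mean, for each library; right, summed MRPL CPM over summed MRPS CPM with all tested genes (circles) and without MRPS6 (squares), on an axis that starts at 1. The MRPS medians fall below the MRPL medians in all 5 doxorubicin libraries, and doxorubicin 3 is lowest in both.

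The calls were then counted by width of the locus. Of 35 members spanning 10 kb or more, 18 fell, 0 rose and 17 did not pass, at a median log2 fold change of −0.63. Among all tested genes of that width 13.0% were lower and 11.8% higher. Of 40 narrower members 4 fell (MRPS18C, MRPL19, MRPS18B and MRPS16), 3 rose and 33 did not pass, at a median of −0.15. Those that rose include MRPS7, which entered the test only through its high group. Among all tested genes under 10 kb, 5.95% were lower and 19.0% higher. Across the 75 members, which share the same 8 libraries, Spearman's rho between locus width and log2 fold change was −0.695, and it was −0.192 across all 14938 tested genes. Protein-coding neighbours within 500 kb gave 0.647 and 0.288. All tested genes at 10 kb or more had a median of −0.05 and narrower ones 0.28, and the members' medians lay below these in both classes.

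Width also differed between the series, with a median locus of 7222 bases for MRPL and 14895 for MRPS. Among narrow loci the median log2 fold change was −0.11 for 29 MRPL and −0.28 for 11 MRPS genes. Among wide loci the order was the opposite, −0.67 for 17 MRPL and −0.55 for 18 MRPS genes. With each library's trend with gene density removed, 13 MRPL and 9 MRPS genes fell, 1 MRPL gene (MRPL57) rose, and the medians of −0.45 and −0.48 differed by −0.02. MRPL12 (adjusted p = 0.151) and MRPS7 (0.0738) no longer passed in that fit, nor did 8 of the 22 lower members. What part width or density had in the fold changes was not tested.

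**Figure D4:**
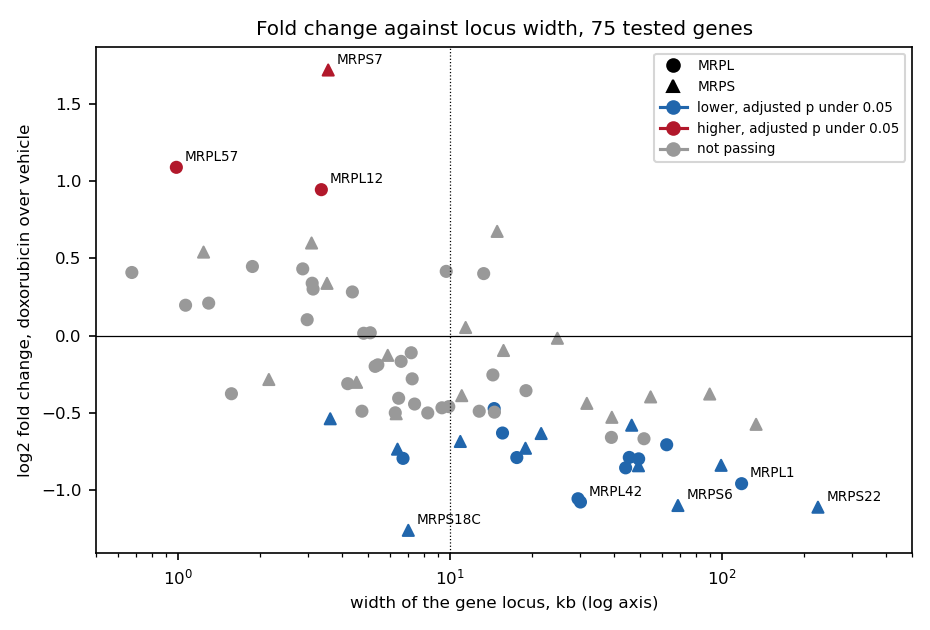
Log2 fold change (y axis) of the 75 tested genes against the width of their locus in kb (log x axis); circles are MRPL, triangles MRPS, and colours mark the calls. The 3 genes that rose lie left of the dotted line at 10 kb and 18 of the 22 that fell lie right of it. MRPS7 entered the test only through its high group.

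Further proteins of the same ribosome carry other names. Of 5 tested, PTCD3 fell (139 ± 1.56 to 78.3 ± 24.1 CPM, SD, n = 3 and n = 5; log2 fold change −0.83, SE 0.25, adjusted p = 0.0369), and 4 did not pass. The lower share was 20% of these 5 genes, beside 11.3% of all tested genes, and rests on PTCD3 alone. PTCD3 did not pass without vehicle 1, 2 or 3, doxorubicin 2 or 3, with library size only, or with the density trend removed (adjusted p up to 0.144). DAP3, a GTP-binding protein of the small subunit, had −0.39 (SE 0.18, adjusted p = 0.138), CHCHD1 had −0.49 (SE 0.21, adjusted p = 0.117), and AURKAIP1 had 0.82 (SE 0.29, adjusted p = 0.0602). The ribosomal RNA of mitochondria was not analysed here.

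Among 15 tested genes of a list of mitochondrial translation factors, 8 fell, 0 rose and 7 did not pass, at a median of −0.53. The list also holds genes that act on mitochondrial RNA, with LRPPRC and TRMT10C among those that fell. The share of the list that fell was 53.3%, beside 11.3% of all tested genes. LRPPRC, which stabilises mitochondrial messenger RNA, had −1.01 (SE 0.19, adjusted p = 0.00945). GUF1, a relative of the bacterial elongation factor LepA, had −0.75 (SE 0.15, adjusted p = 0.0116), and the initiation factor MTIF3 had −0.67 (SE 0.18, adjusted p = 0.0244). TRMT10C, a subunit of the enzyme that trims mitochondrial transfer RNA, had −0.66 (SE 0.18, adjusted p = 0.0290). The lower calls numbered 0 without vehicle 1, 3 without vehicle 2, 2 without vehicle 3, 3 without doxorubicin 2, 4 without doxorubicin 3 and 1 with library size only (median −0.18, where all genes had 0.38). Without vehicle 1, 2 and 3, 2.0%, 5.6% and 2.4% of all tested genes were lower, and with library size only 3.34%.

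Of 27 tested genes for assembly of the ribosome or modification of mitochondrial RNA, 5 fell, 2 rose and 20 did not pass. The share called, 25.9%, was close to the 24.9% of all tested genes. Their median was −0.15. It turned to 0.21 with library size only (1 lower and 7 higher, beside 3.34% and 27.4% of all tested genes). METTL15, which methylates the RNA of the small subunit, had −1.35 (SE 0.21, adjusted p = 0.00623). NSUN3, which modifies a mitochondrial transfer RNA, had −0.65 (SE 0.14, adjusted p = 0.0120). FASTKD2, which binds RNA of the large subunit, had −0.57 (SE 0.14, adjusted p = 0.0205), and RBFA, a maturation factor of the small subunit, had −0.83 (SE 0.21, adjusted p = 0.0234). The genes that rose were MRM2, which methylates RNA of the large subunit (0.55, SE 0.16, adjusted p = 0.0334), and MPV17L2 (0.67, SE 0.22, adjusted p = 0.0485). Without vehicle 1 and without vehicle 3 there were 1 lower and 0 higher calls each, and without vehicle 2 there were 2 and 1.

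The products of the mitochondrial ribosome, the 13 subunits encoded in mitochondrial DNA, had 10 lower and 0 higher calls at a median of −1.27, beside −0.37 and −0.44 for the ribosomal series. The lower share was 76.9%, beside 11.3% of all tested genes. COX2 (−1.83, SE 0.28, adjusted p = 0.00596), COX1 (−1.48, SE 0.26, adjusted p = 0.00809), ND2 (−1.75, SE 0.31, adjusted p = 0.00829) and ND3 (−1.17, SE 0.24, adjusted p = 0.0120) had the smallest p. Without vehicle 1, 2 and 3 the lower calls were 3, 6 and 4, beside 2.0%, 5.6% and 2.4% of all tested genes. With library size only the lower calls of the list were 7, at a median of −0.92, where all genes had 0.38. A list of 14 transcription factors and coactivators of mitochondrial genes had 3 lower and 0 higher calls, or 21.4% called beside 24.9% of all tested genes. The lower ones were TFAM (−0.96, SE 0.20, adjusted p = 0.0125) and TFB2M (−0.80, SE 0.16, adjusted p = 0.0109), which act on mitochondrial DNA itself, and GABPA (−0.46, SE 0.13, adjusted p = 0.0307), an ETS factor that acts on nuclear genes. ESRRG, a nuclear receptor of oxidative tissue, had −0.83 (SE 0.29, adjusted p = 0.0624). The lower calls numbered 0 without vehicle 1, 1 without vehicle 3 and 1 with library size only. In the last, 2 genes passed as higher, beside 27.4% of all tested genes, and the median of −0.17 turned to 0.19. Genes of the cytosolic ribosome with RPL or RPS names had 2 higher (RPS19 and RPL36), 0 lower and 79 not passing of 81. The share called was 2.47%, beside 24.9% of all tested genes. Their median of 0.01 lay near that of all genes. Their loci were narrow (median 4057 bases), and all tested genes under 10 kb had a median of 0.28. With library size only the median of the cytosolic list was 0.37, with 11 higher and 0 lower calls, beside 27.4% and 3.34% of all tested genes. The median turned negative with limma voom (−0.31, with 34 lower calls) and without doxorubicin 5 (−0.21, with 15). In those fits 26.9% and 15.4% of all tested genes were lower. The list's median was also negative without vehicle 1 (−0.16), with the replicate number as a block (−0.14) and without doxorubicin 1 (−0.01). So it was with the density (−0.08) or length (−0.07) trend removed. The length fit gave 7 higher and 6 lower calls, beside 15.0% and 13.8% of all tested genes. The difference between mitochondrial and cytosolic ribosomal genes was not tested.

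**Figure D5:**
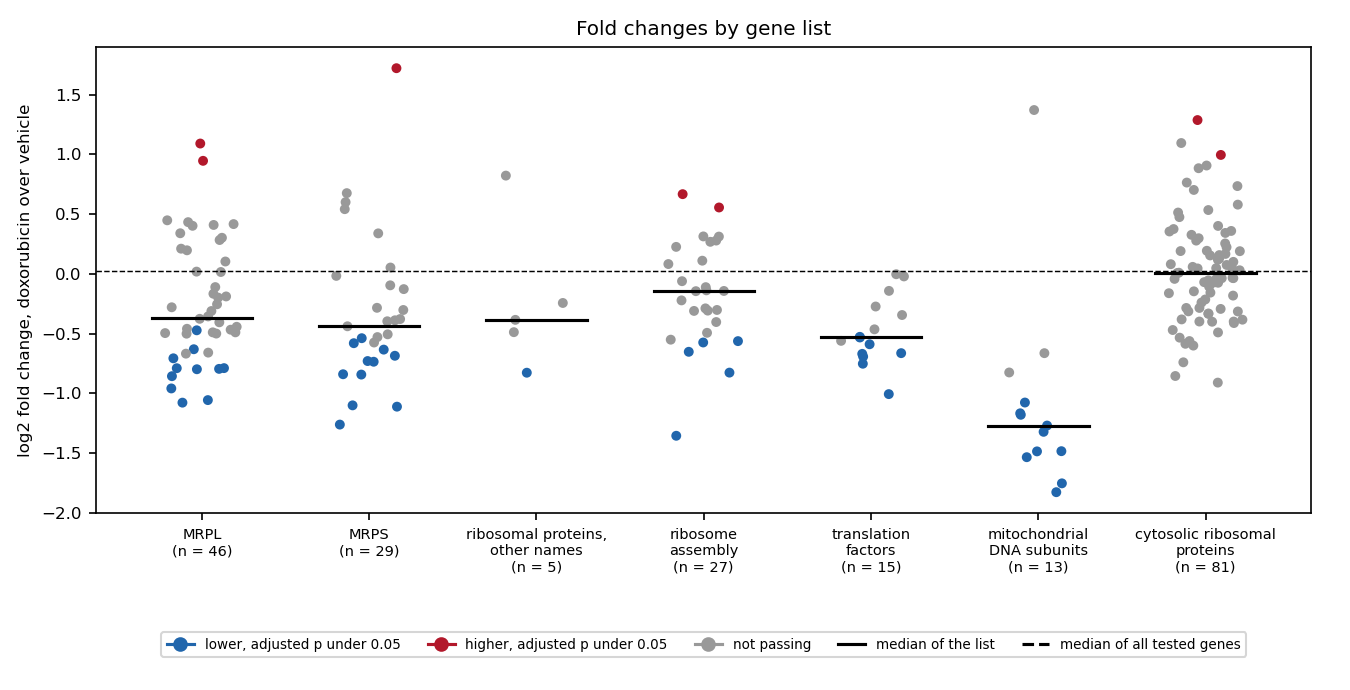
Log2 fold change (y axis) of each tested gene in 7 lists, with the median of each list (bar) and of all tested genes (dashed line at 0.02); blue passed as lower, red as higher. MRPL, MRPS and translation factor medians lie between −0.37 and −0.53, mitochondrial DNA subunits at −1.27 and cytosolic ribosomal proteins at 0.01, which is 0.37 with library size only and −0.31 with limma voom.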

How the data were processed

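The authors deposited raw counts per gene for 8 libraries, made with a SMARTER mRNA kit per the labels' protocols. No aligner, counter or annotation is named in the sources at hand. Gene names, lengths and positions are those of the deposited table. All 77 members had the same start and end in a RefSeq table of Sscrofa11.1. Within groups, library pairs had a chi-square of 18.6 to 316 times its degrees of freedom, and none was treated as a copy.

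The main test was edgeR 4.0.16 (R 4.3.3) on these counts. It used filterByExpr (minimum count 10, minimum total 15), which kept 14938 of 31014 genes, TMM factors, and a robust quasi-likelihood fit with 1 term for treatment, two-sided. Each SE was derived from the log2 fold change and the test's F value. CPM use TMM-scaled library sizes. Counts were also simulated for these 14938 genes. There the fit recovered 0% of 50 genes changed 1.5-fold, 16% changed 2-fold, 62% changed 4-fold and 80% changed 8-fold, with 5 false calls among 84. The data gave 3714 calls, so an adjusted p of 0.05 required a smaller raw p in the simulation. Its shares therefore do not measure recovery in the data.

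Members and lists were chosen with earlier results of these data known, so they carry no test of their own. The list of cytosolic ribosomal proteins, the width split at 10 kb and the ratio without MRPS6 were added after the data were seen. Named were MRPL1, MRPS22, MRPS10, MRPS35, every called member, the 3 largest changes each way and the 3 most abundant in each series, members of the structural groups, and up to 4 genes with the smallest p per list. Values per sample are given for the 8 lower and 8 higher called members with the smallest p. Alternatives were RLE factors, library size only, other filters (none, or CPM above 1 in at least 3 libraries), factors from which mitochondrial DNA, haemoglobin and the 20 top genes were dropped, a replicate block, density and length trends removed (lowess span 0.3), DESeq2 1.42.0, limma 3.58.1 voom, and leaving out each library. Figures used matplotlib 3.10.9.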

Additional observations from a re-analysis of the deposited data

Results flagged for a closer look

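Among the doxorubicin libraries, a single library lay far from the other 4 for several of the values checked, by the gap to its nearest neighbour over the range of the group. Chance alone marks about 1 in 20 such groups, and 11 of 81 values were marked here. Doxorubicin 5 was the high one for 6 genes with narrow loci. It read MRPL17 at 77.9 CPM (next 44.7), MRPL23 at 63.8 CPM (next 39.2), MRPL36 at 18.6 CPM (next 14.1), MRPL41 at 48.6 CPM (next 29.6), MRPL57 at 55.7 CPM (next 42.5) and MRPS34 at 59.1 CPM (next 30.7). Doxorubicin 2 was the high one for MRPL34, at 34.4 CPM (next 28.7).

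Doxorubicin 3 was the low one for MRPS24, at 24.8 CPM (next 33.4). It was also the low one for the medians over genes of log2 CPM minus the vehicle mean, at −0.749 for all members (next −0.345), −0.671 for MRPL (next −0.255) and −0.856 for MRPS (next −0.389).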

How the results depend on the processing

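No member changed direction among those called, under any alternative run. With library size only, 10 members passed as higher and 5 as lower (MRPL 7 and 3, MRPS 3 and 2), at medians of −0.0406 (members), −0.0158 (MRPL) and −0.0924 (MRPS). Of all tested genes 27.4% passed as higher and 3.34% as lower there. The other scalings and filters moved few counts: RLE factors gave 2 higher MRPS genes, no filter 0, CPM above 1 in 3 libraries 5 higher members (MRPS 3), factors without abundant genes 5 (MRPS 3) and a mean of 10 CPM or more 0 higher MRPS genes. With the density trend removed there was 1 higher member (MRPL 1, MRPS 0) and the MRPS median minus the MRPL median was −0.022. With the length trend removed, 34 members (20 MRPL) were lower and 2 MRPS genes were higher. DESeq2 gave 5 higher members (MRPS 3). Limma voom called 8051 genes, with 10 higher and 39 lower members (MRPL 6 and 22, MRPS 4 and 17) and a gap of −0.12 between the medians. The cause of these shifts was not tested.

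Leaving out 1 library gave 649 to 4737 called genes, 0 to 4 higher and 4 to 30 lower members, 0 to 2 higher and 2 to 17 lower MRPL genes, 0 to 2 higher and 2 to 13 lower MRPS genes, and a gap between the medians of −0.15 to −0.0502. Fits without a vehicle library rest on the other 2, and those without vehicle 1 or vehicle 3 gave the fewest calls.

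Vehicle and doxorubicin samples share the numbers 1 to 3 in their labels. Same-numbered samples did not deviate together (correlations of 0.0425, 0.00205 and −0.00312), so no pairing was seen and the main fit has none. With so few matched numbers these values cannot exclude a pairing. With the replicate number as a block, 3638 genes passed, 25 members were lower and 3 higher. MRPS7 (adjusted p = 0.113), MRPL15 (0.0687) and GABPA (0.0904) no longer passed, MRPS21 passed as higher (0.0317), and the gap between the medians was −0.15.

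On simulated counts 16% of genes changed 2-fold were recovered. That run had 84 calls and the data 3714, which made its cut on raw p stricter, so the share does not measure recovery here. A member that did not pass is still not shown to be unchanged, since the 95% intervals of those 50 together spanned −1.23 to 1.21. MRPS7 was read 3 to 28 times a library, and counting error alone is large there.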
